A study of Homo sapiens with 12 samples.

Results

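The 41 genes described here are TFEB, its relatives TFE3 and MITF, and 38 genes of lysosomes, autophagy and nutrient sensing, followed over PRL treatment and deletion of the receptor's I-tail. They were taken by gene symbol from a list of known MiT/TFE, lysosomal and autophagy genes, out of 62702 genes with counts. The list was chosen with earlier results of these data known. All 41 passed the filter on low counts that left 17677 tested genes. The cells were of the human breast epithelial line MCF10AT, which is MCF10A transformed with Ras, and expressed the long and the intermediate human prolactin receptor. The 4 groups compared had 3 libraries each. The first, deleted PRL, had hPRLrL/hPRLrI with the I-tail of the intermediate receptor removed and was given 250 ng/ml prolactin (PRL) for 2 h. The second, deleted untreated, had the same receptors without PRL. The third and the fourth, intact PRL and intact untreated, had hPRLrL/hPRLrI with the I-tail in place. All groups spent 24 h without serum in medium with 0.1% bovine serum albumin before treatment. The sources used here do not give whether each receptor pair was carried by 1 clone or a pool of cells. Deletion of the I-tail therefore cannot be told apart from other differences between the 2 populations of cells.

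TFEB, TFE3 and MITF are basic helix-loop-helix leucine zipper factors of the MiT/TFE family. They bind short E-box elements in the promoters of lysosomal and autophagy genes and raise their transcription. In fed cells the kinase mTORC1 phosphorylates TFEB at the lysosome and keeps it in the cytosol, so its activity is set largely by where the protein is and not only by its transcript. The Rag GTPases and the FLCN-FNIP complex bring TFEB to mTORC1. PRL signals through JAK2 and STAT5, and in the involuting mouse mammary gland lysosomal cathepsins take part in the death of epithelial cells.

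The E-box through which TFEB is known to act is shown first, in the promoters that hold it, because the question is whether the lysosomal genes followed TFEB. Promoter windows of 300 bases, 250 before to 50 after the annotated start, were available in RefSeq (GRCh38.p14) for 29 of the 41 genes. The E-box CACGTG, which reads the same on both strands, was found in 9 of the 29 (31%): CTSA, CTSD, GAA, LAMP1, CLN3, MCOLN1, ATP6V0D1, FNIP1 and RRAGC. It was found in 8.77% of all 27305 genes with a window. The longer palindrome TCACGTGA, which contains it, was present in 6 of the 29 (20.7%), against 1.18% of all genes with a window. That palindrome with a G before it and a C after it, the form in which the element is usually drawn, was present in GAA and MCOLN1 (6.9% of the 29) and in 0.421% of all genes. The STAT-type element TTCNNNGAA, whose fixed letters also read the same on both strands, was found in 0 of the 29 and in 9.38% of all genes. The 3 windows of TFEB held none of the 4 motifs. A match is a run of letters and not a measured binding site. The genes were listed as known MiT/TFE, lysosomal and autophagy genes, so their higher share of the E-box is not an independent finding. The stretches below run 5′ to 3′ from 100 bases before the start to 50 after it for 5 of the 6 genes with TCACGTGA. Capitals mark CACGTG with a T just before it and an A just after it where these are present.
CTSA, chr20:45891235-45891384, plus strand: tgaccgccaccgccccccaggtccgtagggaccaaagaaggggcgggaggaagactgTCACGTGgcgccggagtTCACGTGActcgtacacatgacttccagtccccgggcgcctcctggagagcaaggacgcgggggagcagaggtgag
GAA, chr17:80101481-80101630, plus strand: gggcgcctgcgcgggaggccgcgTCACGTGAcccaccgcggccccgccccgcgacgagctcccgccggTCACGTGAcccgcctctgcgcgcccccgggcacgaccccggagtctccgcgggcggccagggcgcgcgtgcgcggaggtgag
LAMP1, chr13:113297139-113297288, plus strand: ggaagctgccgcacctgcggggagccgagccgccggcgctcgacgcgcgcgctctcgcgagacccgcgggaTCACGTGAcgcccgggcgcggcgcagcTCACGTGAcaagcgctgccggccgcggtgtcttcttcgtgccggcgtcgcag
MCOLN1, chr19:7522524-7522673, plus strand: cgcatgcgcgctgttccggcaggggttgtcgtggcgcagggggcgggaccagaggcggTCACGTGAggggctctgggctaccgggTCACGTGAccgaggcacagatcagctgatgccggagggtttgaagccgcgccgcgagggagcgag
ATP6V0D1, chr16:67481108-67481257, minus strand: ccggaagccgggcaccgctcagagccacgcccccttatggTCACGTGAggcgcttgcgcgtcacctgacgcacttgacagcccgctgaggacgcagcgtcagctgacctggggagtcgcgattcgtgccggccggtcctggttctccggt

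The libraries held 36120808 to 57324865 counts, and 19073 to 25200 genes had a count above 0. The fewest genes were in intact PRL 2 (19073) and intact untreated 2 (19905). These libraries also had the lowest TMM scaling factors, 0.7905 and 0.8857, and the highest factor was 1.164, in intact untreated 1. CISH, the STAT5 target that feeds back on cytokine receptors, was 14.3-fold higher with PRL on average over both receptor pairs (edgeR quasi-likelihood test, adjusted p = 1.45e-07), and PRLR, the receptor gene, stood at 3099 to 3959 CPM (counts scaled by TMM to a common library size) in every library. All 10 epithelial markers passed the filter, with a summed level of 4248 to 16390 CPM in deleted PRL, 3958 to 13140 in deleted untreated, 3906 to 14170 in intact PRL and 3439 to 10670 in intact untreated cells. The lowest libraries were those of title run 1, described below: KRT5, a basal keratin, had 13367 to 18712 counts in those 4 libraries and 33300 to 136825 in the other 8. Not every epithelial marker separated in this way. KRT8 had 37416 to 47541 counts in run 1 and 45523 to 77784 in the other libraries, and EPCAM had 104 to 143 and 42 to 235. The part of these run 1 differences in the results was not tested. Of 9 leukocyte and macrophage markers 2 passed, CSF1R and ITGAM, while C1QA and TYROBP were at 0 in all libraries. The summed level of the 9 was 22.97 to 48.5 CPM in deleted PRL, 24.17 to 43.98 in deleted untreated, 36.27 to 43.15 in intact PRL and 20.57 to 33.99 in intact untreated cells, nearly all of it CSF1R, and its part in the results was not tested. Of 6 fibroblast markers 4 passed, with a summed level of 422.1 to 616.5 CPM across the libraries, and of 5 endothelial markers 2 passed. The 12 titles are numbered in 3 runs of 4 (1 to 4, 5 to 8 and 9 to 12), and each run holds 1 library of every group. Libraries are numbered here by run. The labels do not say what a run is. Libraries of the same run deviated together from their group means, those of run 1 most. Their deviations correlated at 0.43 to 0.603 over the 6 pairs of run 1. The range was 0.098 to 0.356 in run 2 and 0.097 to 0.342 in run 3. Pairs of libraries from different runs and groups had a median of −0.204. Deviations from group means of 3 libraries sum to 0 within a group, so values below 0 across runs are partly built in.

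The transcript of TFEB (ENSG00000112561, chr6:41683978-41736259 on the minus strand, GRCh38, GENCODE 29) was higher with PRL in both receptor pairs, by a similar factor. Its level in the libraries of run 1, 2 and 3 was 91.4, 112.3 and 102.6 CPM in deleted PRL cells, against 55.8, 61.2 and 60.7 CPM in deleted untreated cells. In intact PRL cells it was 96.2, 140.7 and 108.6 CPM, against 59.2, 82.4 and 65.7 CPM in intact untreated cells. All 6 PRL libraries lay above all 6 untreated libraries, the lowest PRL library at 91.4 CPM and the highest untreated library at 82.4 CPM. TFEB was 1 of 78 genes of 17677 (0.441%) with that order, and no other of the 41 genes had it. None of the 41 genes had the opposite order, which 0.238% of all genes had. TFEB averaged 102.1 ± 10.5 CPM in deleted PRL, 59.2 ± 3.0 in deleted untreated, 115.2 ± 23.0 in intact PRL and 69.1 ± 11.97 in intact untreated cells (SD, n = 3 each). In RNA of whole cultures, more transcript per cell and more cells with the transcript cannot be told apart.

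Averaged over both receptor pairs, the log2 fold change of TFEB with PRL was 0.76 ± 0.13 (SE), with a 95% interval of 0.48 to 1.05 (edgeR quasi-likelihood test, adjusted p = 0.047). In that contrast 21 genes (0.119%) were called at an adjusted p under 0.05, and TFEB was the 1 gene of the 41 among them. The call was close to the threshold. It ended with RLE scaling (0.78, adjusted p = 0.0988) and in 10 of 12 fits that left out 1 library, all but those without intact PRL 1 or intact untreated 2, with log2 fold changes of 0.68 to 0.85 and adjusted p of 0.018 to 0.214 over the 12 leave-outs. With a term for the title runs the estimate was 0.76 ± 0.08 (adjusted p = 1e-04), in a fit that called 198 genes (1.12%).

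Within each receptor pair TFEB missed the threshold in the fit without the run term. The log2 fold change was 0.79 ± 0.19 with the deleted I-tail (edgeR, adjusted p = 0.77, 3 genes or 0.017% called) and 0.74 ± 0.19 with the intact I-tail (adjusted p = 1, 3 genes or 0.017% called). With the run term it was 0.78 (adjusted p = 0.0062, 0.322% of genes called) with the deleted and 0.73 (adjusted p = 0.00709, 0.351% called) with the intact I-tail. The difference between the 2 PRL effects was 0.05 ± 0.26 on the log2 scale, with a 95% interval of −0.52 to 0.61. That interval is from the fit without the run term, and its width is such that the 2 effects were not shown to be equal.

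TFE3 (ENSG00000068323, chrX:49028726-49043486, minus strand), which shares lysosomal targets with TFEB, did not pass. It stood at 142.1, 158.7 and 195.0 CPM in deleted PRL, against 128.7, 153.8 and 159.2 CPM in deleted untreated cells, and at 136.6, 272.8 and 214.8 CPM in intact PRL, against 131.3, 213.4 and 183.0 CPM in intact untreated cells. The PRL library was higher than the untreated library of the same run and receptor pair in 6 of 6 pairs, but the groups overlapped widely. The share of all genes with such an order in same-run pairs was not counted, here or for the genes below. The averaged log2 fold change was 0.20 ± 0.18 (95% interval −0.18 to 0.59, adjusted p = 0.98). Per kilobase of exon in GENCODE 29, TFE3 was the most abundant of the 3 factors at 40.7 CPM, with TFEB at 15.3 and MITF at 0.304.

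MITF (ENSG00000187098, chr3:69739435-69968337, plus strand), best known from melanocytes, was scarce in these cells, with 32 to 151 counts per library. It stood at 2.47, 2.63 and 1.05 CPM in deleted PRL and 3.49, 2.09 and 1.70 CPM in deleted untreated cells. In intact cells it stood at 2.01, 0.956 and 1.56 CPM with PRL and 3.39, 2.68 and 2.22 CPM untreated. The intact PRL libraries all lay below the intact untreated libraries, an order that 2.88% of all genes had, and the deleted groups overlapped. The averaged log2 fold change was −0.55 ± 0.28 (edgeR, adjusted p = 0.98), on the side opposite to that of TFEB.

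**Figure D1:**
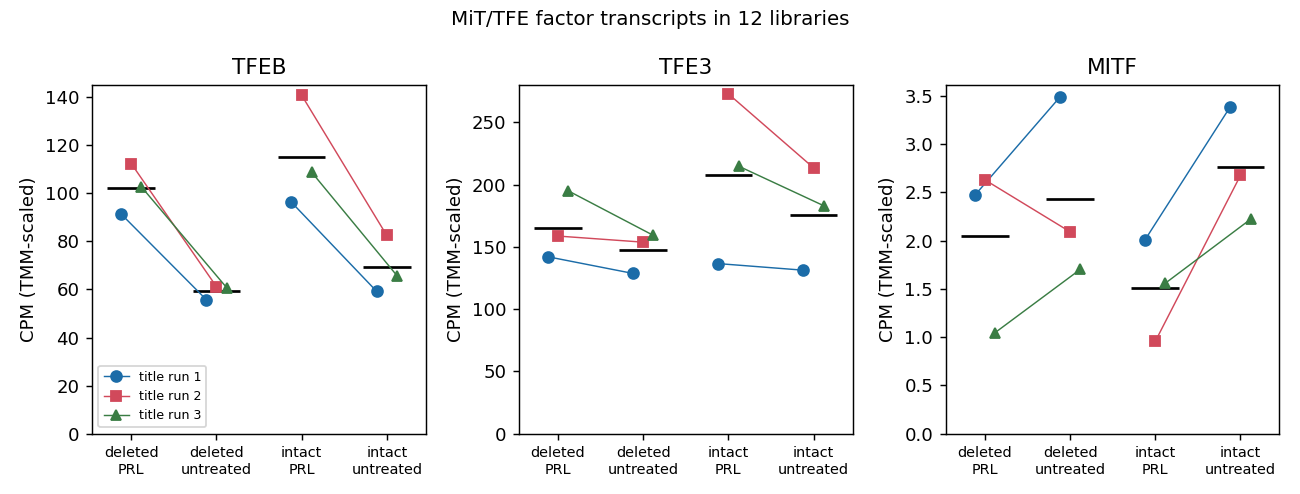
Levels of TFEB, TFE3 and MITF in the 12 libraries, in TMM-scaled CPM on linear axes that start at 0. Points are libraries, lines join the PRL and untreated library of the same title run, and black bars are group means (n = 3). All 6 TFEB lines slope down toward the untreated library, while the TFE3 groups overlap, as do the MITF groups with the deleted I-tail, and MITF stays below 3.5 CPM.

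None of the 38 lysosomal, autophagy and nutrient-sensing genes passed the test with PRL. In the averaged PRL contrast 0 rose, 0 fell and 0 reached an unadjusted p under 0.05 (edgeR without the run term). Of all 17677 tested genes, 673 had an unadjusted p under 0.05 in that fit. DESeq2 and limma-voom also called 0 of the 38. With the run term edgeR also called 0, and 3 of the 38 had an unadjusted p under 0.05, against 2411 of 17677 tested genes. These were PPT1, ATP6V1H and ATP6V1A, all with estimates below 0. In the fit without the run term the median log2 fold change of the 38 was −0.016, against −0.023 over all 17677 tested genes. Of the 38, 15 (39.5%) were above 0, against 46.1% of all genes. Single values ran from −0.25 for ATP6V1A to 0.34 for CLN3. The upper end of the 95% interval lay below the TFEB estimate of 0.76 for 35 of the 38, the exceptions being CLN3 (1.11), FNIP2 (0.78) and ATP6V0D1 (0.77). The same held for 13121 of 17677 tested genes. With the run term the exception was CLN3, with 37 of 38 below TFEB. These counts take the TFEB estimate as fixed. In the fit without the run term its own 95% interval ran from 0.48 to 1.05. In that fit CTSD, NAGLU, SGSH and MCOLN1 also had upper ends above 0.48. The median half-width of the 95% interval was 0.299 for the 41 genes in the fit without the run term. The run term gave narrower intervals for some, such as −0.36 to −0.031 for ATP6V1H.

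**Figure D2:**
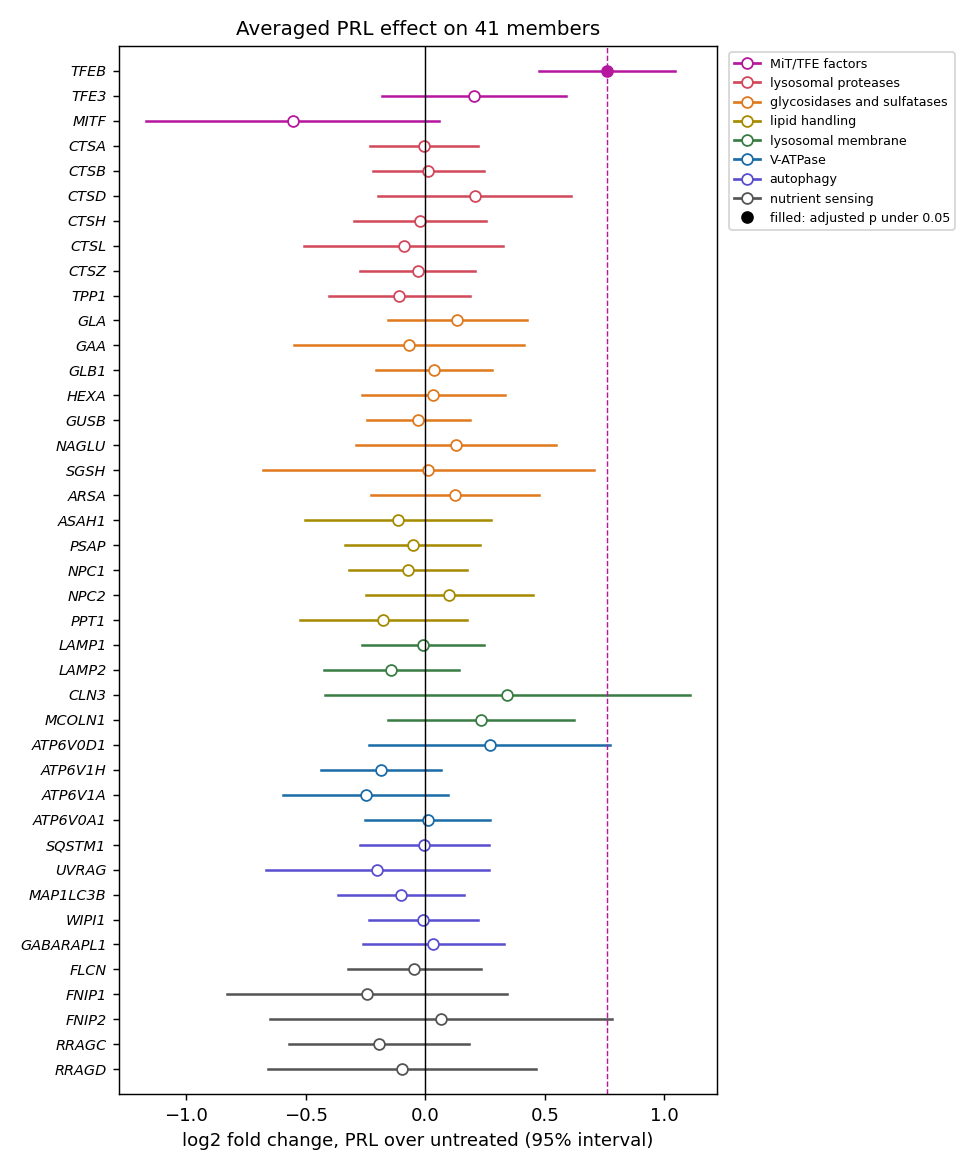
Log2 fold change with PRL, averaged over both receptor pairs, for the 41 genes with 95% intervals from the edgeR fit, coloured by role. The filled point, TFEB at 0.76 (dashed line), is the 1 gene called. Of the 38 lysosomal, autophagy and nutrient-sensing genes, 35 have intervals that end left of the dashed line. The interval of TFEB itself runs from 0.48 to 1.05.

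The lysosomal proteases included some of the most abundant transcripts of the list. Cathepsin B (CTSB) stood at 1332 to 1513 CPM over the 12 libraries, cathepsin Z (CTSZ) at 679.3 to 827.8 CPM and protective protein cathepsin A (CTSA) at 250.0 to 296.6 CPM. Their estimated PRL effects were near 0, at 0.013, −0.032 and −0.0057 on the log2 scale. The 95% intervals were −0.22 to 0.25 for CTSB, −0.27 to 0.21 for CTSZ and −0.23 to 0.22 for CTSA. Cathepsin L (CTSL) was at −0.09 and tripeptidyl peptidase TPP1 at −0.11. CTSD, an aspartic protease, had 743.9, 937.8 and 826.9 CPM in deleted PRL, against 741.9, 780.1 and 652.8 CPM in deleted untreated cells. It had 775.3, 1508 and 1105 CPM in intact PRL, against 781.3, 1360 and 794.4 CPM in intact untreated cells. The run 1 libraries lay between 741.9 and 781.3 CPM in all 4 groups, and the spread came from runs 2 and 3. Its averaged log2 fold change was 0.21 ± 0.19 (edgeR, adjusted p = 0.98). In GENCODE 29, 52.7% of the exon bases of CTSD are shared with other genes, mostly AC068580.4 on the same strand, so its counts are uncertain.

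Glycosidases and sulfatases, which remove sugars and sulfates from glycogen, glycolipids and glycosaminoglycans, lay slightly above 0 in 6 of 8 cases, with a median of 0.035 and a range of −0.07 to 0.13 on the log2 scale. None passed. Acid alpha-glucosidase (GAA), whose promoter holds 2 copies of the palindrome above, ranged from 141.1 to 301.6 CPM and had a log2 fold change of −0.07. Arylsulfatase A (ARSA) had 92.8, 114.6 and 116.4 CPM in deleted PRL, against 90.4, 106.3 and 102.7 CPM in deleted untreated cells. It had 98.8, 156.4 and 158.1 CPM in intact PRL, against 90.3, 158.1 and 128.6 CPM in intact untreated cells. These groups overlapped, and the averaged log2 fold change was 0.12 ± 0.16. Beta-galactosidase (GLB1), beta-hexosaminidase alpha (HEXA) and beta-glucuronidase (GUSB) were at 0.035, 0.034 and −0.029. Alpha-galactosidase (GLA) was at 0.13. NAGLU and SGSH, enzymes of heparan sulfate breakdown, were at 0.13 and 0.012, the second with only 22 to 114 counts per library.

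Of the 5 genes of lipid handling, 4 had estimates below 0 and none passed, with a median of −0.07. Prosaposin (PSAP), the precursor of the saposins, was the most abundant of the 41 genes, at 3649 to 4730 CPM and 1286 CPM per kilobase of exon, and its log2 fold change was −0.05 (95% interval −0.33 to 0.23). Acid ceramidase (ASAH1) was at −0.11 and the cholesterol carrier NPC2 at 0.10. NPC1, the membrane protein that takes cholesterol from NPC2, had 63.2, 65.5 and 60.4 CPM in deleted PRL, against 67.2, 79.2 and 70.2 CPM in deleted untreated cells. In intact cells it had 67.2, 86.3 and 62.8 CPM with PRL, against 64.9, 69.9 and 74.2 CPM untreated. The deleted PRL libraries all lay below the deleted untreated ones, an order that 4.97% of all genes had, and the intact groups overlapped. The averaged log2 fold change was −0.07 ± 0.11. PPT1, which removes fatty acids from proteins, had 54.0, 42.9 and 33.5 CPM in deleted PRL, against 52.2, 56.6 and 36.5 CPM in deleted untreated cells. It had 45.7, 39.2 and 29.9 CPM in intact PRL, against 49.5, 43.4 and 38.6 CPM in intact untreated cells. Its levels followed the runs more than the groups, and the averaged log2 fold change was −0.18 ± 0.16. Its counts are uncertain, since 23.4% of its exon bases in GENCODE 29 are shared, all with CAP1 on the opposite strand.

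None of the 4 lysosomal membrane genes passed, with a median of 0.11. Of the 2 abundant membrane glycoproteins, LAMP1 stood at 426.1 to 545.4 CPM with a log2 fold change of −0.0096, and LAMP2 at 46.8 to 75.3 CPM with −0.14. MCOLN1, the lysosomal calcium channel that acts upstream of TFEB and is also one of its targets, had 27.8, 33.0 and 34.3 CPM in deleted PRL, against 24.8, 31.2 and 27.5 CPM in deleted untreated cells. It had 24.7, 53.8 and 46.0 CPM in intact PRL, against 26.5, 41.5 and 34.8 CPM in intact untreated cells. The groups overlapped in both receptor pairs, the PRL library was the higher in 5 of 6 same-run pairs, and the averaged log2 fold change was 0.23 ± 0.18 (95% interval −0.16 to 0.62, edgeR adjusted p = 0.98).

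The 4 subunits of the V-ATPase, the proton pump that acidifies lysosomes, split in direction, and none passed. ATP6V0D1, of the membrane sector, had 149.6, 210.6 and 235.2 CPM in deleted PRL, against 143.7, 176.7 and 174.8 CPM in deleted untreated cells. It had 148.8, 366.6 and 287.3 CPM in intact PRL, against 140.3, 318.4 and 206.3 CPM in intact untreated cells. The PRL library was higher in 6 of 6 same-run pairs, by 0.06 and 0.08 on the log2 scale in run 1 and by 0.20 to 0.48 in runs 2 and 3. Run 1 was low in all 4 groups, the groups overlapped, and the averaged log2 fold change was 0.27 ± 0.23 (edgeR, adjusted p = 0.98; with the run term 0.25 ± 0.12, adjusted p = 0.386). ATP6V0A1, of the same sector, was at 0.0098.

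The 2 subunits of the cytosolic sector lay on the other side of 0. ATP6V1A, the catalytic subunit, had 31.9, 27.2 and 21.5 CPM in deleted PRL, against 36.6, 27.7 and 27.9 CPM in deleted untreated cells. It had 30.2, 18.2 and 24.3 CPM in intact PRL, against 35.6, 29.5 and 24.8 CPM in intact untreated cells. ATP6V1H had 39.8, 29.3 and 30.6 CPM in deleted PRL, against 40.5, 38.1 and 37.0 CPM in deleted untreated cells. It had 39.3, 31.7 and 35.1 CPM in intact PRL, against 42.4, 37.2 and 39.0 CPM in intact untreated cells. Each was lower with PRL in 6 of 6 same-run pairs, while run 1 was high in every group and the groups overlapped. The averaged log2 fold changes were −0.25 ± 0.16 for ATP6V1A and −0.19 ± 0.12 for ATP6V1H (edgeR, adjusted p = 0.98 each; with the run term adjusted p = 0.266 and 0.29).

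The 5 autophagy genes lay near 0, with a median of −0.0088, a range of −0.20 to 0.033 and none passing. The cargo receptor SQSTM1, which carries ubiquitinated cargo to autophagosomes, was abundant at 603.2 to 832.2 CPM and had a log2 fold change of −0.0046 (95% interval −0.27 to 0.27). WIPI1, which binds phosphoinositide at forming autophagosomes, stood at 17.7 to 20.9 CPM with −0.0088, on exons of which 28.1% of bases are shared with ARSG and another gene on the opposite strand. The ubiquitin-like proteins MAP1LC3B and GABARAPL1 were at −0.10 and 0.033, and both have close paralogs between which reads may have been split. UVRAG, a partner of Beclin 1, was at −0.20.

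The 5 nutrient-sensing genes included 1 estimate above 0 and none that passed, with a median of −0.10. FLCN and its partners FNIP1 and FNIP2, which switch the Rag GTPases toward TFEB phosphorylation, were at −0.05, −0.24 and 0.064. RRAGD, a TFEB target in other cells, was at −0.10. Its paralog RRAGC had 6.94, 5.71 and 4.75 CPM in deleted PRL, against 7.55, 4.84 and 5.95 CPM in deleted untreated cells. It had 5.51, 5.08 and 4.39 CPM in intact PRL, against 7.74, 5.52 and 5.38 CPM in intact untreated cells. RRAGC was lower in PRL in 5 of 6 same-run pairs with overlapping groups, and its averaged log2 fold change was −0.19 ± 0.17. Of its exon bases 22.9% are shared with AL139260.2 on the same strand, so its counts are uncertain too. CTSA and SQSTM1 share 28.5% and 22% of theirs with genes on the opposite strand. FLCN, TPP1, HEXA and NAGLU share 11.9%, 14.4%, 16.3% and 12.6%, at least in part with a gene on the same strand. Of the 6 genes with TCACGTGA in the promoter window 0 were called, with averaged log2 fold changes of −0.0057 for CTSA, −0.07 for GAA, −0.0096 for LAMP1, 0.34 for CLN3, 0.23 for MCOLN1 and 0.27 for ATP6V0D1.

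Comparing libraries of the same run showed the contrast between TFEB and the rest without the differences between runs. TFEB was 1.64-fold, 1.84-fold and 1.69-fold higher in the deleted PRL library of run 1, 2 and 3 than in the deleted untreated library of that run. It was 1.63-fold, 1.71-fold and 1.65-fold higher in the intact pairs. The 6 folds thus stayed between 1.63 and 1.84. The median log2 ratio of the 38 other genes in the same pairs was −0.045, −0.020 and −0.089 in deleted cells and 0.024, −0.016 and −0.0077 in intact cells. In no deleted pair did another of the 41 genes reach the ratio of TFEB. In intact pairs 1, 1 and 2 genes did. CLN3 was among them in all 3, joined by SGSH in run 3. LAMP2, ATP6V1H, ATP6V1A and UVRAG were lower with PRL in all 6 pairs, and TFEB, TFE3 and ATP6V0D1 were higher in all 6. The share of all tested genes with the same direction in all 6 pairs was not counted, so these orders cannot be set against it.

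**Figure D3:**
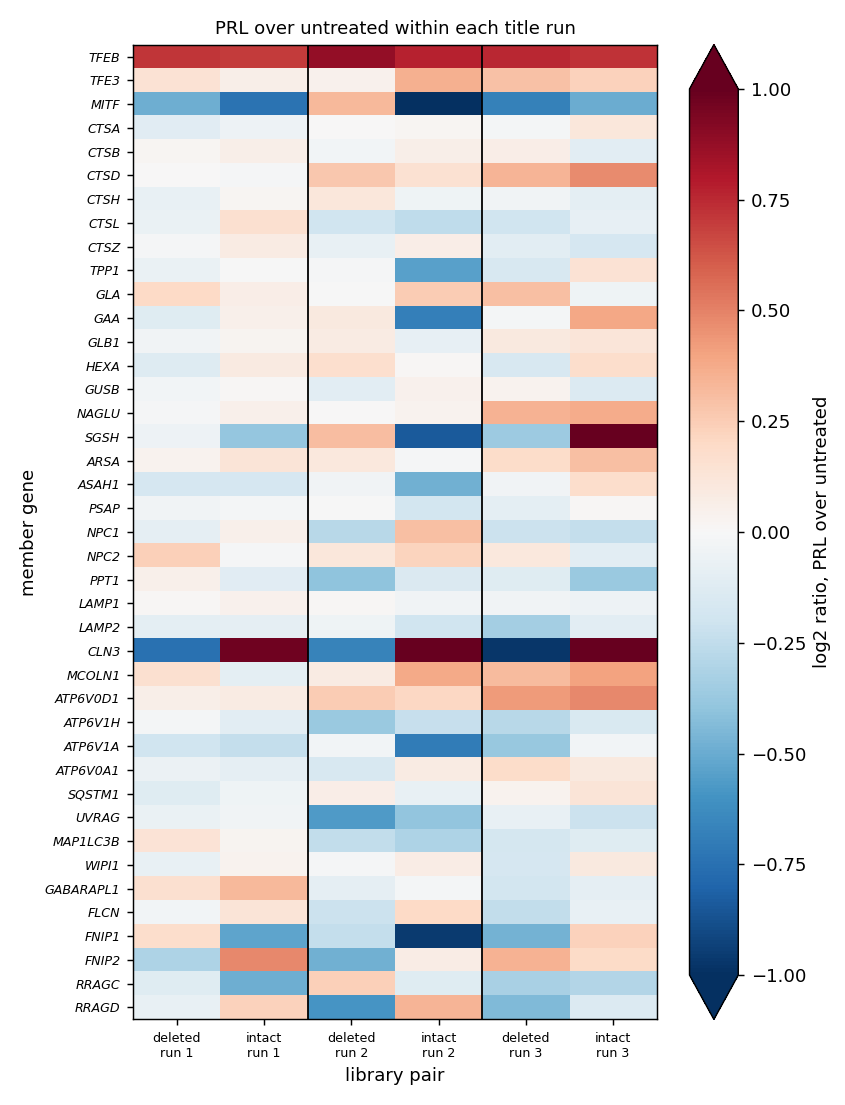
Log2 ratio of PRL over untreated for each of the 41 genes in the 6 library pairs that share a title run and a receptor pair, on a colour scale from −1 to 1. TFEB is evenly red (0.70 to 0.88) in all 6 columns, most other rows are pale, and CLN3 is red in the intact and blue in the deleted columns.

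CLN3 (ENSG00000188603, chr16:28474111-28495575, minus strand), a lysosomal membrane protein mutated in a childhood storage disease, was the member whose PRL effect differed most between the receptor pairs. It had 0.422, 0.314 and 0.244 CPM in deleted PRL, against 0.739, 0.528 and 0.522 CPM in deleted untreated cells. In intact cells it had 0.410, 1.02 and 0.951 CPM with PRL, against 0.186, 0.248 and 0.365 CPM untreated. With the deleted I-tail all PRL libraries lay below the untreated ones, an order that 4.97% of all genes and 4 of the 41 had (NPC1, CLN3, WIPI1 and FLCN). With the intact I-tail all PRL libraries lay above, an order that 2.61% of all genes and 2 of the 41 had (TFEB and CLN3). TFEB was the 1 gene of the 41 with all PRL libraries above with the deleted I-tail, against 3.29% of all genes. The log2 fold change of CLN3 was −0.86 ± 0.50 with the deleted and 1.54 ± 0.51 with the intact I-tail. The difference of the 2 was −2.40 ± 0.71 (95% interval −3.94 to −0.87, edgeR adjusted p = 1).

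That difference failed the correction over all genes, as did every other gene in this contrast (0 of 17677 called, 0%, by edgeR, and 0 by DESeq2 and limma-voom, with 127 at an unadjusted p under 0.05, CLN3 the 1 of the 41 among them). CLN3 rests on 8 to 39 counts per library, and 30.9% of its exon bases in GENCODE 29 are shared with other genes, AC138894.1 on the same strand and APOBR on the opposite strand, so the source of these reads is uncertain. The median interaction of the 38 genes was −0.015, against −0.016 over all genes. The medians of the PRL effect itself were −0.043 with the deleted I-tail and 0.0047 with the intact I-tail. With the deleted I-tail 11 of 38 genes were above 0 (28.9%, against 47.2% of all genes), and with the intact I-tail 21 of 38 (55.3%, against 48.4%). All 5 autophagy and all 5 nutrient-sensing genes had estimates below 0 with the deleted I-tail, the lowest being RRAGD at −0.34, and 3 of each 5 had estimates above 0 with the intact I-tail. None passed in either pair.

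Deletion of the I-tail, averaged over both treatments, changed none of the 41 genes past the threshold. In that contrast 1 gene of 17677 (0.00566%) was called, and none of the 41 had all 6 deleted libraries above (0.13% of all genes) or all 6 below (0.0566%) the intact libraries. The median over the 38 genes was −0.044, against 0.033 over all genes, and with the scaling by library size alone the 2 medians were 0.056 and 0.11. TFEB was at −0.20 ± 0.13 and TFE3 at −0.29 ± 0.18. The smallest unadjusted p was that of CTSD, at −0.43 ± 0.19 (edgeR, adjusted p = 0.991). CTSD was the 1 of the 38 under 0.05 in the fit without the run term, against 403 of 17677 tested genes. ARSA was at −0.34 ± 0.16 (edgeR, adjusted p = 0.991). DESeq2 and limma-voom called 0 of the 38. With the run term edgeR also called 0 of the 38, and 7 had an unadjusted p under 0.05, against 2372 of 17677 tested genes. Of the 3 MiT/TFE factors it called 0, and 2 had an unadjusted p under 0.05. In every same-run pair of equal treatment the TFEB level was lower in the deleted than in the intact library. The share of all tested genes with that order was not counted.

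The glycosidases and sulfatases had 1 of 8 estimates above 0 in the deletion contrast, with a median of −0.12 and a low of −0.66 for SGSH. On the other side of 0 the smallest p belonged to CTSH and PPT1. CTSH, an aminopeptidase, had 24.4, 27.3 and 33.8 CPM in deleted PRL, against 25.4, 24.0 and 27.3 CPM in intact PRL cells. It had 25.7, 25.3 and 34.6 CPM in deleted untreated, against 25.0, 24.8 and 29.3 CPM in intact untreated cells. The log2 fold changes were 0.14 ± 0.13 for CTSH and 0.16 ± 0.16 for PPT1 (adjusted p = 0.991 each). CTSD, ARSA, MCOLN1 and ATP6V0D1 were lower in the deleted than in the intact libraries mainly in runs 2 and 3. In run 1, the ATP6V0D1 level was 149.6 CPM in the deleted PRL and 148.8 CPM in the intact PRL library. CTSD (1508 and 1360 CPM) and ATP6V0D1 (366.6 and 318.4 CPM) were highest in intact PRL 2 and intact untreated 2. Those libraries had the fewest genes with a count, and the part of this in the deletion contrast was not tested.

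**Figure D4:**
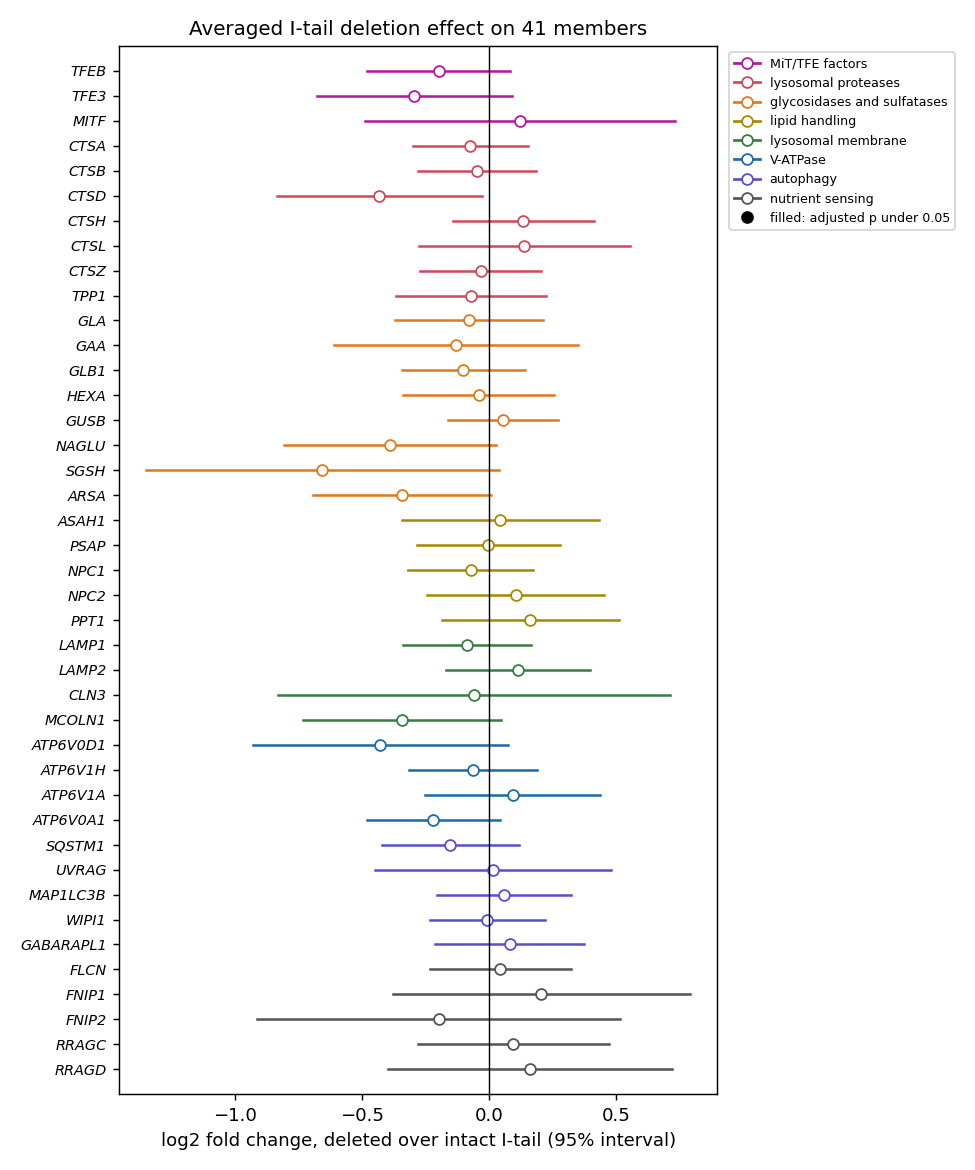
Log2 fold change of deleted over intact I-tail, averaged over both treatments, for the 41 genes with 95% intervals from the edgeR fit, coloured by role. No point is filled, and the interval of CTSD (−0.43) is the 1 that ends below 0.

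The title runs accounted for most of the spread within groups. The median share of the within-group sum of squares that lay between runs was 71.3% for the 41 genes and 59.3% for all tested genes. ASAH1, ATP6V1H, ATP6V1A, UVRAG and RRAGD were higher in all 4 run 1 libraries than in the other 8, an order that 12.8% of all genes had. TFE3, GLB1, ARSA, PSAP, LAMP1 and ATP6V0D1 were lower in all 4, as were 13.6% of all genes. The mean difference of run 1 from the other runs reached −0.71 for ATP6V0D1, −0.51 for MCOLN1, 0.76 for FNIP1 and 0.89 for FNIP2 on the log2 scale. For TFEB that difference was −0.26. Each run held all 4 groups, but the run differences were not of the same size in each group. ATP6V0D1 stood at 148.8 and 366.6 CPM in runs 1 and 2 of intact PRL, and at 143.7 and 176.7 CPM in deleted untreated cells. The run term takes 1 mean per run for all groups and does not remove such unevenness. What a run stands for was not tested.

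**Figure D5:**
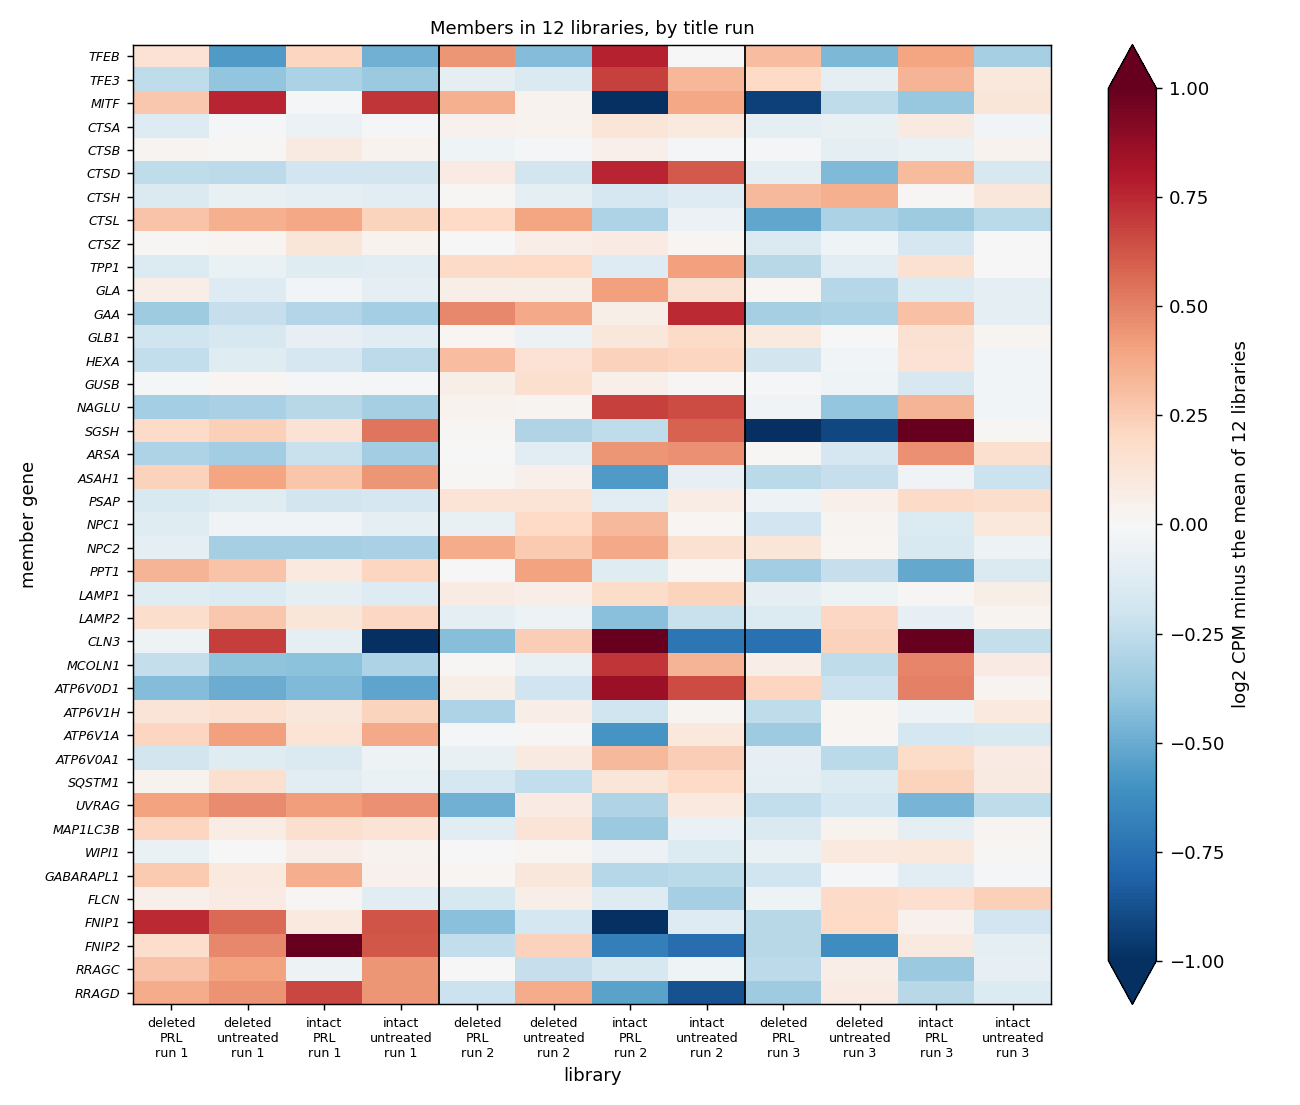
Log2 CPM (prior count 2) of the 41 genes in the 12 libraries minus the mean of the gene over all 12, ordered by title run (black lines) and by group within a run, on a colour scale from −1 to 1. In the TFEB row each PRL library is higher than the untreated library beside it, while rows such as ATP6V0D1 and UVRAG differ in colour between run 1 and the other runs.

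Other genes of the same pathways, 147 by list and 142 tested, were tested in the same fits. In the averaged PRL contrast 0 of 142 passed in edgeR without the run term. Of the 142, 5 had an unadjusted p under 0.05, against 673 of 17677 tested genes. The median log2 fold change was −0.033 with 44.4% above 0, against −0.023 and 46.1% over all tested genes. By list the medians were −0.020 for 32 other lysosomal hydrolases, −0.10 for 15 other lysosomal membrane genes, −0.06 for 15 other V-ATPase genes, 0.015 for 39 other autophagy genes, −0.0069 for 24 genes of mTORC1 and nutrient sensing and −0.08 for 17 regulators of MiT/TFE proteins. DDIT4, which restrains mTORC1 under stress, had 654.7, 542.9 and 672.2 CPM in deleted PRL, against 917.5, 791.8 and 934.5 CPM in deleted untreated cells. It had 669.5, 575.9 and 624.4 CPM in intact PRL, against 906.4, 924.4 and 942.5 CPM in intact untreated cells. All 6 PRL libraries lay below all 6 untreated ones, an order that 0.238% of all genes had. Its averaged log2 fold change was −0.53 ± 0.12 (edgeR, adjusted p = 0.192), and it was the 1 gene of the 142 that DESeq2, limma-voom and the fit with the run term (adjusted p = 0.00194) called.

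The next values did not pass in any of these fits. PPARGC1B, a coactivator of mitochondrial genes, had 3.02, 2.97 and 4.72 CPM in deleted PRL, against 1.20, 2.11 and 2.16 CPM in deleted untreated cells, and 3.37, 1.70 and 3.07 CPM in intact PRL, against 1.88, 1.43 and 1.89 CPM in intact untreated cells (log2 fold change 0.81 ± 0.24, edgeR adjusted p = 0.589). Each PRL library was the higher of its same-run pair. ULK1, the kinase that starts autophagy and a substrate of mTORC1, had 538.1, 423.1 and 578.1 CPM in deleted PRL, against 450.3, 364.7 and 458.1 CPM in deleted untreated cells. It had 545.9, 705.0 and 658.9 CPM in intact PRL, against 424.1, 481.0 and 476.9 CPM in intact untreated cells. The log2 fold change was 0.37 ± 0.13 (adjusted p = 0.957), with each PRL library again the higher of its pair. The V-ATPase subunit ATP6V0A4 was at 0.90 ± 0.46, on levels of 0.185 to 4.27 CPM. SESN1, a sestrin that restrains mTORC1, was at −0.51 ± 0.18 and the lysosomal transporter MFSD8 at −0.66 ± 0.29 (adjusted p = 0.957 and 0.98).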

How the data were processed

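PolyA RNA of 12 MCF10AT libraries was measured. The authors deposited raw read counts, 1 whole number for each Ensembl gene in each library. The submitters' processing notes name STAR 2.7.9a, Subread with featureCounts, FastQC and GRCh38 as the build. No source used here gives the annotation release, the filters or the strand setting of the counting, so reads of overlapping genes cannot be told apart. Groups follow the genotype and treatment labels, which speak of biological replicates. Replicates differed by more than counting error (chi-square per degree of freedom 57.15 to 239.6 over genes with a summed count of at least 20 in the pair).

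The table had 62703 entries, 1 of them empty and dropped. A symbol was found for 62624 of the other 62702. In R 4.3.3, 17677 genes passing filterByExpr entered edgeR 4.0.16 with TMM scaling and a mean for each group (8 residual degrees of freedom, robust quasi-likelihood F test, biological coefficient of variation 0.303). Benjamini-Hochberg adjustment ran over all tested genes, with calls at 0.05. A standard error is the log2 fold change over the square root of its F. CPM are TMM-scaled. The title-run term adds a mean per run of title numbers. The method was tested on simulated data that held a PRL effect but no differences between runs, so that test does not cover run differences. Other settings tried were RLE and upper-quartile scaling, library size alone, no count filter, a stricter one (1 CPM and 10 counts in 3 libraries), no robust estimation, DESeq2 1.42.0, voom with quality weights in limma 3.58.1, the compared groups only, the run term and each library left out. Leaving out run 1 was chosen after seeing the data.

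The genes and lists were chosen with earlier results of these data known. Per-library values are given for the 3 factors, called genes, the 4 smallest p in each direction of the averaged PRL contrast and the 2 in the interaction and averaged deletion contrasts; of the pathway lists, called genes and the 3 smallest p in each direction are named. Genes named otherwise were chosen after their values were seen. Loci and exon lengths came from GENCODE 29. No protein sequence was used here.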

Additional observations from a re-analysis of the deposited data

How the results depend on the processing

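The TFEB estimate for PRL, averaged over both receptor pairs, stayed between 0.65 and 0.85 on the log2 scale in all 22 alternatives. Its call held in 2 of the 12 leave-outs (0.68 to 0.85, with 0 to 1 of the 41 called) and in 9 of the 10 other alternatives, all but RLE scaling (0.78, with 0 of the 41 called). Within receptor pairs TFEB passed with limma-voom (0.83 deleted, adjusted p = 0.0162; 0.73 intact, adjusted p = 0.0316) and with the run term (0.78 and 0.73), each with 1 of the 41 called. The 38 other genes had 0 calls with edgeR, DESeq2, limma-voom and the run term in all 7 contrasts.

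Counts over all genes moved most. The averaged PRL contrast called 21 genes, and 124 with no count filter, 86 with DESeq2, 118 with limma-voom, 198 with the run term, 37 without title numbers 1 to 4 and 11 to 27 in the leave-outs. The deleted pair called 3, and 1 with library size alone, 33 with no filter, 20 with DESeq2, 21 with limma-voom, 11 with the compared groups only, 57 with the run term and 1 to 5 in the leave-outs. The intact pair called 3, and 1 with library size alone, 46 with no filter, 20 with DESeq2, 27 with limma-voom, 1 with the compared groups only, 62 with the run term and 1 to 4 in the leave-outs. The averaged deletion contrast called 1, and up to 33 with no filter. The cause was not tested.

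Library size alone moved the median of all genes to −0.12 for the averaged PRL effect (−0.023 with TMM), and that of the 38 genes with it, to −0.12, with −0.13 deleted, −0.12 intact and 0.056 for the averaged deletion. The median interaction of the 38 was −0.092 to 0.027 in the leave-outs. No call reversed. No paired analysis by replicate number was possible because the labels give none; the run term stands in for it and gave 0.76 (adjusted p = 1e-04) for TFEB. The median 95% half-width of 0.299 (0.597 for the interaction) limits what single genes can show in the fit without the run term, and CLN3, SGSH, MITF and FNIP2 also rest on few counts.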
